A study of Mus musculus with 6 samples.

Results

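Transport between the nucleus and the cytoplasm was followed at the level of transcripts in mouse brown adipose tissue, through 42 genes of the nuclear pore and of the nuclear transport receptors. The genes were chosen by name: every probe set whose only platform gene symbol begins with Nup, Xpo or Ipo and a digit, or with Kpna, Kpnb or Tnpo, together with Aaas, Ranbp2, Tpr, Rae1, Ndc1, Sec13 and Seh1l. This gave 84 of the 22626 probe sets tested and 42 of the 12393 genes, and 2 further probe sets that name a member beside another gene were left out. Tpr, Nup205, Nup214, Nup35 and Ipo13 were not analysed here. The rule used names and no measured value.

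The tissue came from 6 mouse samples, each on its own Affymetrix expression array, 3 control and 3 YY1bKO. Control mice had both Yy1 alleles floxed (YY1flox/flox), and YY1bKO mice had the same floxed alleles and also Ucp1Cre, a Cre recombinase under the promoter of Ucp1, the uncoupling protein gene of brown adipocytes. All were 3.5 months old, were of a mixed C57BL6 and 129 background, and had received a high fat diet for 3 months, so every value describes fat-fed animals and no group carried Cre without the floxed alleles. Cells of the depot other than brown adipocytes would keep Yy1, the gene of a DNA-binding protein with zinc fingers that activates or represses transcription. What is asked here is how pore and receptor transcripts differ in tissue whose brown adipocytes have been made to lose it.

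The nuclear pore is a large ring set into the nuclear envelope and built from many copies of proteins called nucleoporins. Stacked outer rings, made of the Y-shaped complex, and an inner ring form its scaffold. Membrane nucleoporins anchor the scaffold, and nucleoporins with phenylalanine-glycine repeats fill the central channel, the cytoplasmic filaments and the nuclear basket. Cargo that is too large to diffuse crosses with soluble receptors, importins inward and exportins outward, and the small GTPase Ran in its nuclear, GTP-bound state releases cargo from importins and holds it on exportins.

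Values are log2 intensities, in which a difference of 1 is a 2-fold difference. A gene is represented by its brightest probe set, a fold change is YY1bKO over control, and a gene is called when limma's moderated test gives an adjusted p under 0.05 over all probe sets. Values of single arrays are listed in the order of replicates 1, 2 and 3. Yy1 itself was lower on all YY1bKO arrays, at 9.90, 9.62 and 9.95 in control and 8.38, 8.41 and 8.38 in YY1bKO, a difference of -1.43 ± 0.11 (SE, adjusted p = 0.000887). Brown adipocyte markers were bright, with means over 7 genes of 12.03 to 12.51 in control and 12.15 to 12.32 in YY1bKO, and Ucp1 was at 13.92 ± 0.06 in control and 13.78 ± 0.08 in YY1bKO (SD, n = 3). Of the 7, Elovl3, a fatty acid elongase gene, was called higher (1.14 ± 0.29, adjusted p = 0.0399), and the other 6, Ucp1 included, had negative fold changes that were not called. The mean over 12 skeletal muscle markers was 10.94, 13.28 and 10.71 on the control arrays and 12.18, 12.36 and 11.87 on the YY1bKO arrays, so control replicate 2 stood apart. In that list 1 of the 12 genes, Myh7, was called, higher in YY1bKO by 1.72 ± 0.23 (SE, adjusted p = 0.00531). Fold changes were positive in 11 of the 12 and negative in 1. Of 6 endothelial markers 3 were called lower, with list means of 8.79 to 9.00 in control and 8.33 to 8.52 in YY1bKO, and of 6 lymphocyte markers 1 was called higher, with means of 5.57 to 5.74 and 5.85 to 5.92. Macrophage means were 7.85 to 8.54 and 8.19 to 8.44 and fibroblast means 9.90 to 10.75 and 10.37 to 10.62, with no gene called in either list. White adipocyte means were 7.69 to 8.28 and 7.69 to 8.26, with 1 of 4 genes lower. Over all genes 9.72% were called higher and 7.78% lower. In the lymphocyte list 5 of the 6 markers were dim (a mean no higher than 6.48, the middle value of the array). The part that other cells have in the results below was not tested. In bulk tissue, fewer cells of a type and less RNA per cell cannot be told apart.

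Many transcripts of the pore's own proteins were higher in YY1bKO tissue and none was called lower. Calls among the receptors went in both directions, at shares not far from those of all genes. Of the 42 genes 15 were called higher, 35.7%, where 9.72% of all genes were, and 2 were called lower, 4.76%, where 7.78% of all genes were. The members were brighter than most, with 3 of 42 dim against 5467 of all 12393 genes. With dim probe sets left out, 15 of 39 member genes were higher and 2 lower, against 15.9% and 13.9% of the 6926 genes left. Of the 22 nucleoporin genes 14 were higher and 0 lower (15 and 1 where p is taken before adjustment, under 0.05). Of the 20 receptor genes 1 was higher and 2 were lower, 5% and 10% (4 and 2 before adjustment). Before adjustment, 2219 of all 12393 genes were higher and 1747 lower at a limma p under 0.05. The receptor counts turned with the setting, to 3 higher and 3 lower with array weights and 2 and 2 in the mean over probe sets. They were 2 and 1 without control replicate 3 and 1 and 3 without control replicate 2. In these 4 settings the all-gene shares were 13.6% and 12.1%, 9.86% and 7.46%, 7.24% and 6.25%, and 12.9% and 11.3%. The median log2 fold change was 0.46 over the nucleoporin genes, -0.08 over the receptor genes and 0.04 over all genes. Counted by probe set, 25 of 84 were higher and 4 lower, against 8.83% and 7.16% of all probe sets. In 26 of the 42 genes the groups did not overlap, 61.9% against 38.4% of all genes. The difference between nucleoporins and receptors was not tested as such. Leaving out an array moved the counts: the 14 higher nucleoporin genes became 4 without control replicate 1, 8 without control replicate 3 and 5 without any single one of the 3 YY1bKO arrays, and stayed at 14 without control replicate 2. Over all genes the share called higher was then 4.93%, 7.24%, 4.12% to 4.37% and 12.9%.

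**Figure D1:**
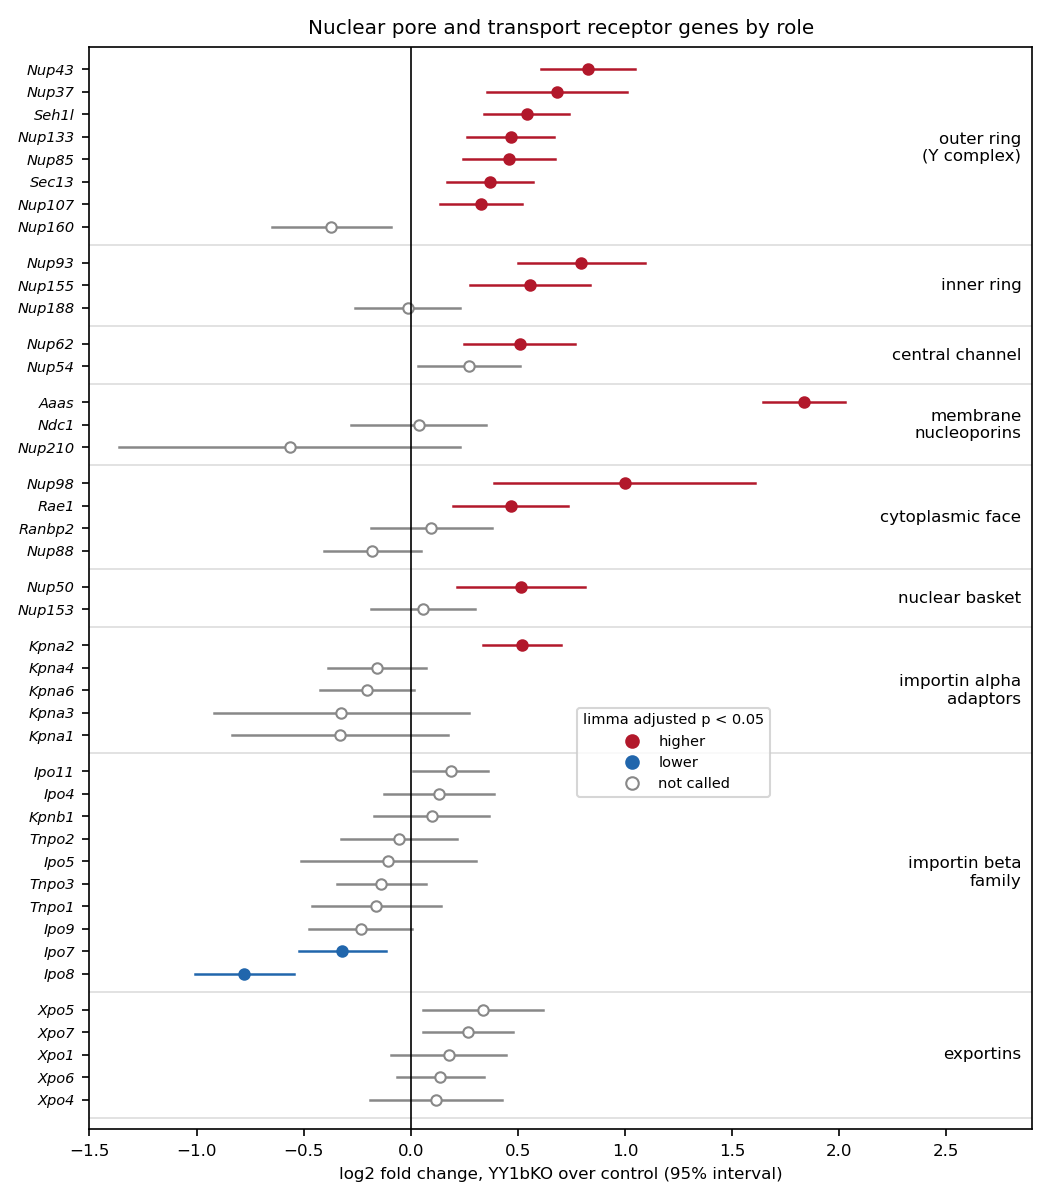
Log2 fold change of each of the 42 genes (x axis, YY1bKO over control, with its 95% interval), by the brightest probe set and grouped by role (y axis). Filled points are called at a limma adjusted p under 0.05: 14 of the 22 nucleoporin genes are called higher, and of the 20 receptor genes 1 is called higher and 2 lower.

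The outer ring held 7 of the 17 called genes. The Y complex forms the outer rings and also sits at kinetochores in mitosis. Of its 8 measured genes 7 were higher and 1 was not called. The share higher was 87.5%, against 9.72% of all genes. The median log2 fold change was 0.46. Nup43, a propeller-shaped subunit on an arm of the Y, had log2 intensities of 6.39, 6.44 and 6.55 in control and 7.31, 7.39 and 7.17 in YY1bKO. All 3 YY1bKO arrays lay above all control arrays, and the gene was 1.78-fold higher (0.83 ± 0.09, SE, adjusted p = 0.00303). Its dimmer probe set gave 0.61 (adjusted p = 0.0113). Nup37, another propeller subunit that binds Nup160, gave 7.26, 7.68 and 7.44 in control and 8.35, 8.04 and 8.03 in YY1bKO. YY1bKO replicate 1 was the highest, the groups did not overlap, and the log2 fold change was 0.68 ± 0.14 (adjusted p = 0.0198). With single arrays left out in turn Nup43 was called each time, and the call of Nup37 was lost (adjusted p up to 0.0682) in every case but that of control replicate 2.

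Seh1l and Sec13 are propeller subunits with duties outside the pore, both in the GATOR2 complex that relays amino acid supply to mTORC1, and Sec13 also in the COPII coat of vesicles leaving the endoplasmic reticulum. Seh1l was measured at 9.33, 9.12 and 9.20 in control and 9.77, 9.73 and 9.77 in YY1bKO. The YY1bKO values lay within a narrow band above every control value, a rise of 0.54 ± 0.08 (SE, adjusted p = 0.00853). All 6 probe sets of Seh1l had positive fold changes, 0.34 to 1.16, and 4 of them were called. Sec13 gave 9.50, 9.62 and 9.51 on the control arrays and 9.99, 9.81 and 9.93 on the YY1bKO arrays. Its groups did not overlap and differed by 0.37 ± 0.09 (adjusted p = 0.0299). Seh1l was called with any single array left out, and Sec13 with control replicate 2 left out but with no other (adjusted p up to 0.11).

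The stem, hub and arms of the Y are built of helical scaffold proteins. Nup133, at the tip of the stem, was at 7.99, 8.15 and 8.01 in control and 8.50, 8.45 and 8.60 in YY1bKO, higher by 0.47 ± 0.09 (adjusted p = 0.0148). Its 3 dimmer probe sets gave 0.04 to 0.22 and were not called. Nup107, its partner in the stem, was at 7.42, 7.51 and 7.59 in control and 7.81, 7.88 and 7.81 in YY1bKO, and its rise of 0.33 ± 0.08 (adjusted p = 0.0361) was the smallest called among the nucleoporins. Nup85, which carries Seh1l and Nup43 on an arm, was at 7.27, 7.49 and 7.30 in control and 7.79, 7.76 and 7.88 in YY1bKO. It was higher by 0.46 ± 0.09 (adjusted p = 0.0184), and its dimmer probe set by 0.38 (adjusted p = 0.0356). Groups did not overlap for any of the 3 genes. Leaving out control replicate 1 or YY1bKO replicate 1 or 3 ended the Nup133 call (adjusted p up to 0.0622). The Nup107 call ended without control replicate 1 or any YY1bKO array (up to 0.126), and the Nup85 call without any array other than control replicate 2 (up to 0.0755). Nup160, which joins the hub to Nup37, was the sole Y complex gene with a negative fold change, at 7.10, 7.12 and 6.93 on the control arrays and 6.89, 6.55 and 6.60 on the YY1bKO arrays. All its YY1bKO values lay below the control values, and the difference of -0.37 ± 0.12 was not called (adjusted p = 0.0791, 95% interval -0.65 to -0.09).

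**Figure D2:**
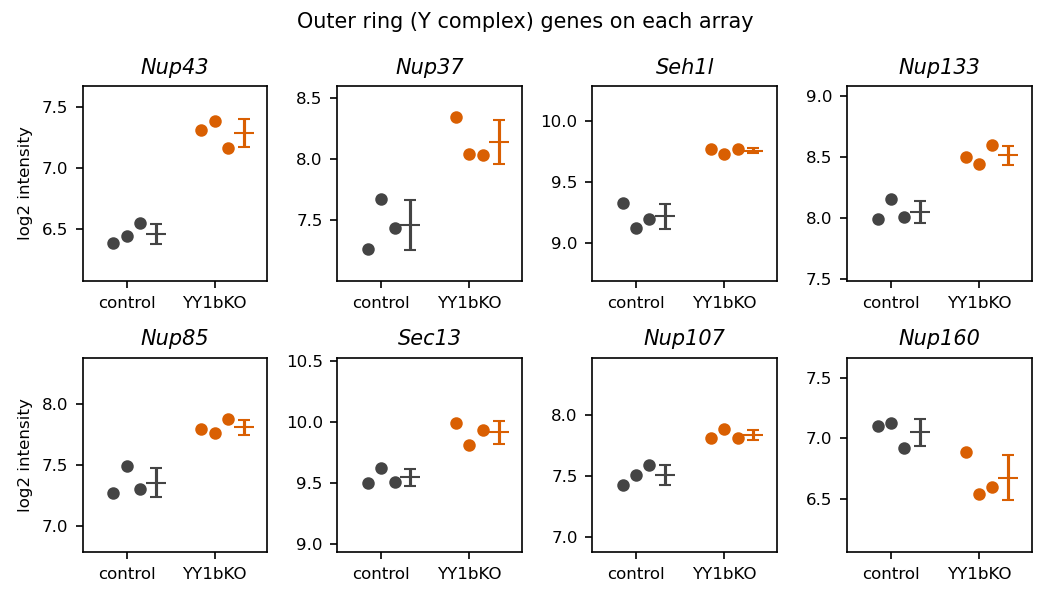
Log2 intensity (y axis) of the 8 outer ring genes on each of the 3 control and 3 YY1bKO arrays (x axis), with the mean and SD beside the points; every panel spans the same range of log2 units. In 7 genes all YY1bKO points lie above all control points, and in Nup160 all lie below. The groups did not overlap in 38.4% of all genes.

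The inner ring links the scaffold to the membrane and to the channel. Of 3 measured genes 2 were higher, 66.7% against 9.72% of all genes. Nup93, which anchors the channel nucleoporins, was at 7.08, 7.47 and 7.09 in control and 8.12, 7.98 and 7.94 in YY1bKO. Even control replicate 2, the highest control array, lay below all YY1bKO arrays, and Nup93 was 1.74-fold higher (0.80 ± 0.13, adjusted p = 0.00899). Nup155, a membrane-binding scaffold protein, was at 6.23, 6.52 and 6.24 in control and 6.99, 6.95 and 6.72 in YY1bKO, higher by 0.56 ± 0.12 (adjusted p = 0.0232). Its dimmer probe set was called as well, with 0.40. The call of the brighter one was lost without control replicate 1 or 3 or YY1bKO replicate 1 or 2 (adjusted p up to 0.0896). Nup188, a large ring protein that binds Nup93, gave 7.20, 6.89 and 7.11 on the control arrays and 6.98, 7.05 and 7.13 on the YY1bKO arrays. Its groups overlapped, with a log2 fold change of -0.01 ± 0.10 and an interval of -0.26 to 0.23.

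In the central channel, Nup62 and Nup54 carry the repeats that receptors bind on their way through. Nup62 was at 7.50, 7.66 and 7.45 in control and 7.91, 8.02 and 8.22 in YY1bKO. No control array reached the lowest YY1bKO array, and the rise was 0.51 ± 0.11 (SE, adjusted p = 0.0239). Of its 4 probe sets 3 were called higher, with 0.51 to 0.55, and the dimmest, at 4.20 in control, gave -0.05. Without control replicate 1 or 3 or YY1bKO replicate 2 or 3 Nup62 was not called (adjusted p up to 0.08). Nup54 was at 8.98, 8.67 and 8.81 in control and 9.13, 9.12 and 9.02 in YY1bKO. These groups did not overlap either, but the difference of 0.27 ± 0.10 was not called (adjusted p = 0.12). A dim probe set of Nup54, at 4.64 in control, was called higher (0.59, adjusted p = 0.0474).

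Aaas had the largest rise of the 42 genes. It encodes ALADIN, a propeller protein that is held at the pore by the membrane nucleoporin Ndc1 and that is mutated in human triple A syndrome. Its log2 intensities were 6.25, 6.23 and 6.26 in control and 8.17, 8.10 and 7.98 in YY1bKO. The control arrays lay within a few hundredths of each other and below the median of all probe sets at 6.48, and the YY1bKO arrays were far above them. Aaas was 3.57-fold higher (1.84 ± 0.08 on the log2 scale, SE, adjusted p = 0.000306). The value rests on 1 probe set. Of the genes annotated on either side of Aaas that have a probe set here, Myg1 gave 0.51 ± 0.07 (adjusted p = 0.00603) and Sp7 0.19 ± 0.15 (adjusted p = 0.454). Ndc1, its membrane anchor, was at 6.76, 6.30 and 6.71 in control and 6.66, 6.65 and 6.57 in YY1bKO. Control replicate 2 was the lowest, the groups overlapped, and the log2 fold change was 0.04 ± 0.13 (adjusted p = 0.891).

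Nup210, a membrane glycoprotein needed for the differentiation of cultured mouse muscle cells, had the widest spread of the 42 genes among the control arrays. It was at 6.19, 7.32 and 5.95 on the control arrays and 5.75, 5.96 and 6.07 on the YY1bKO arrays. Control replicate 2 exceeded the mean of the other controls by 1.25 on the log2 scale, while the other 5 arrays lay between 5.75 and 6.19, and the difference of -0.56 ± 0.34 was not called (adjusted p = 0.316). The same array was over 0.5 above the other controls in 4 more of the 42 genes: Kpna3 by 0.95, Kpna1 by 0.78, Nup98 by 0.63 and Ipo5 by 0.62. None of the 42 was below by that much, and over all genes 11.8% differed by over 0.5 in either direction. Its muscle marker mean, given above, was the highest of the 6 arrays. The YY1bKO arrays had muscle marker means between those of control replicate 2 and the other controls, and their Nup210 values were 5.75 to 6.07. The part of muscle tissue in these values was not tested.

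**Figure D3:**
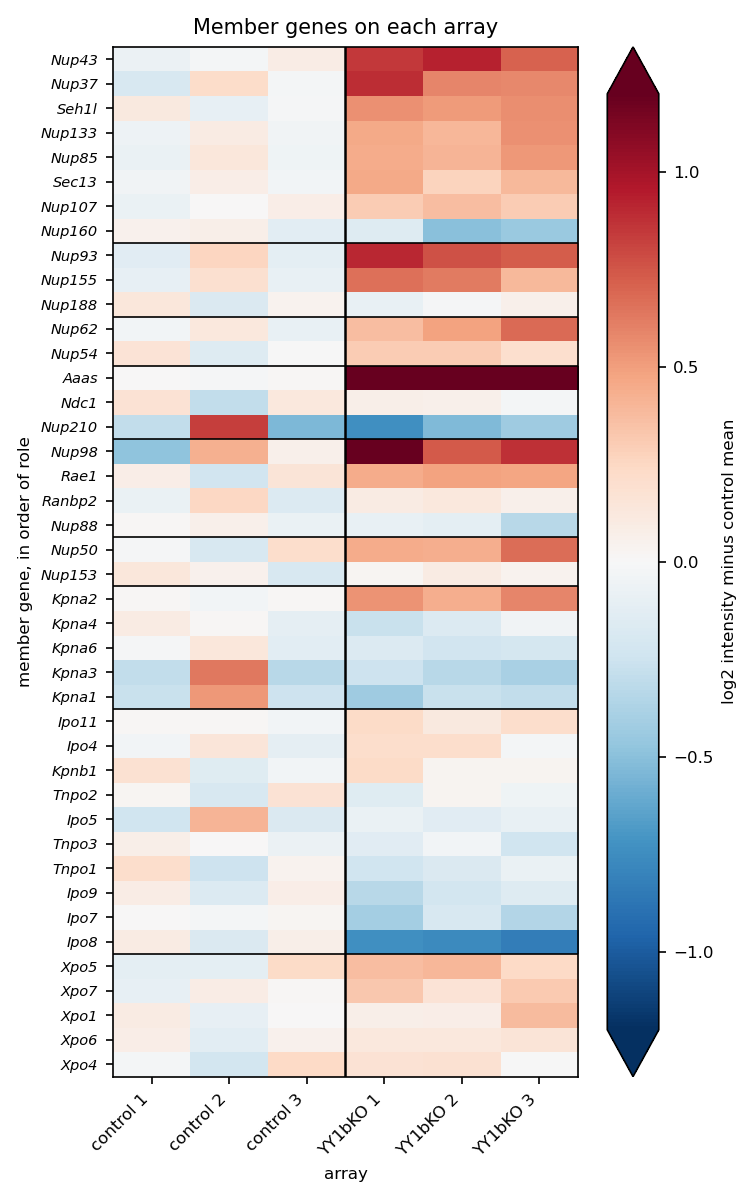
Log2 intensity minus the control mean (colour) for each of the 42 genes (rows, in order of role, with lines between roles) on each array (columns). Most of the upper rows are red across the 3 YY1bKO arrays, Aaas and 1 Nup98 value beyond the end of the scale, and Nup210, Kpna3 and Kpna1 are red on control replicate 2 alone.

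Messenger RNA leaves the pore at the cytoplasmic face. Of 4 genes grouped under this face and messenger RNA export docking, 2 were higher, 50% against 9.72% of all genes. The 2 were Nup98 and Rae1, while Nup88 and Ranbp2 were not called. Nup98 encodes a repeat nucleoporin that is made as a precursor together with the Y complex protein Nup96. It was at 6.42, 7.32 and 6.95 in control and 8.27, 7.63 and 7.77 in YY1bKO, spread widely in both groups and without overlap, a rise of 1.00 ± 0.26 (SE, adjusted p = 0.0421). Rae1, the messenger RNA export factor that docks on Nup98, was at 8.18, 7.87 and 8.25 in control and 8.55, 8.58 and 8.57 in YY1bKO. The YY1bKO arrays lay within a few hundredths of each other, all above control, and the rise was 0.47 ± 0.11 (adjusted p = 0.0354). Nup98 was not called once any array other than control replicate 2 was left out (adjusted p up to 0.127), nor was Rae1 without control replicate 1 or any YY1bKO array (up to 0.115). Nup88, a scaffold protein of the cytoplasmic face, was at 9.24, 9.29 and 9.15 on the control arrays and 9.14, 9.11 and 8.89 on the YY1bKO arrays. All its YY1bKO values lay below the lowest control value, and the difference of -0.18 ± 0.10 was not called (adjusted p = 0.266). Ranbp2, the giant nucleoporin of the cytoplasmic filaments and a SUMO ligase, gave 0.10 ± 0.12 (adjusted p = 0.645, interval -0.18 to 0.38).

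The nuclear basket was represented by Nup50 and Nup153. Nup50, a mobile nucleoporin that helps to free cargo from importin alpha, was at 7.95, 7.77 and 8.17 in control and 8.41, 8.40 and 8.63 in YY1bKO. All YY1bKO arrays were above control, and the rise was 0.51 ± 0.13 (adjusted p = 0.0362), a call that was lost without control replicate 1 or any YY1bKO array (up to 0.124). Its other 2 probe sets gave 0.20 and 0.52 and were not called. Nup153, to which Nup50 binds, was at 9.15, 9.07 and 8.82 in control and 9.04, 9.12 and 9.06 in YY1bKO. Its groups overlapped, with a difference of 0.06 ± 0.10 (adjusted p = 0.762).

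Importin alpha proteins recognise the classical nuclear localisation signal and bind importin beta. Of the 5 measured adaptor genes 1, Kpna2, was called higher and 0 lower. The shares were 20% and 0%, against 9.72% and 7.78% of all genes. Kpna2 was at 8.94, 8.90 and 8.94 in control and 9.47, 9.37 and 9.52 in YY1bKO. Both groups were tight and apart, and Kpna2 was 1.43-fold higher (0.52 ± 0.08, SE, adjusted p = 0.00762). The other 4 had negative fold changes that were not called: Kpna4 -0.16, Kpna6 -0.21, Kpna3 -0.32 and Kpna1 -0.33, with adjusted p of 0.189 to 0.444. These are values of the brightest probe sets. A dim Kpna4 probe set gave 0.34 and a dimmer Kpna1 probe set 0.03, neither called. All other probe sets of the 4 genes were negative. Kpna4, the brightest of the 4 genes, was at 10.02, 9.94 and 9.82 in control and 9.66, 9.77 and 9.88 in YY1bKO, with overlapping groups. Kpna3 was at 9.04, 9.96 and 9.00 in control and 9.08, 9.00 and 8.94 in YY1bKO. Control replicate 2 was high, and the other 5 arrays lay between 8.94 and 9.08. In Kpna1 too that array exceeded the mean of the other controls, by 0.78. A dimmer Kpna3 probe set, at 6.65, 6.73 and 6.62 on the control arrays and 6.27, 6.36 and 6.32 on the YY1bKO arrays, was called lower (-0.35, adjusted p = 0.0246).

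Receptors of the importin beta family carry cargo through the pore, alone or with an adaptor. Of the 10 measured genes 2 were lower and 0 higher, with a median log2 fold change of -0.12. The shares were 20% and 0%, against 7.78% and 9.72% of all genes. At an unadjusted p under 0.05 there were 2 lower and 1 higher, against 1747 and 2219 of all 12393 genes. Ipo8, a receptor that in human cells also carries Argonaute proteins, was at 8.95, 8.68 and 8.92 in control and 8.11, 8.09 and 8.02 in YY1bKO. The groups were well apart, and Ipo8 was 1.71-fold lower (-0.78 ± 0.10, SE, adjusted p = 0.00436). Its dim second probe set, at 5.76 in control, gave -0.10 and was not called. Ipo7, the closest relative of Ipo8 and an import receptor of ribosomal proteins, was at 10.30, 10.28 and 10.33 in control and 9.89, 10.11 and 9.95 in YY1bKO. The groups did not overlap, and the difference was -0.32 ± 0.09 (adjusted p = 0.0477). The Ipo7 call was lost after quantile normalization and without any array except control replicate 2 (adjusted p up to 0.157).

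Kpnb1, importin beta itself and the partner of the adaptors, was at 10.43, 10.10 and 10.21 on the control arrays and 10.48, 10.28 and 10.28 on the YY1bKO arrays. The groups overlapped and the log2 fold change was 0.10 ± 0.11 (adjusted p = 0.624, interval -0.17 to 0.37), with -0.08 to 0.33 over its 4 probe sets. The remaining genes of the family lay between -0.23 (Ipo9, a carrier of histones, adjusted p = 0.174) and 0.19 (Ipo11, adjusted p = 0.145) and were not called. The others were Ipo4, Ipo5, Tnpo1, which imports messenger RNA-binding proteins, Tnpo2, and Tnpo3, which imports splicing factors rich in serine and arginine. Among the alternatives run, Ipo9 was called lower without control replicate 2 and with array weights. Ipo5 gave -0.10 in its brightest probe set and was called lower in another (-0.34, adjusted p = 0.0439).

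Exportins showed small positive values and no call in the brightest probe set of each gene. All 5 measured genes had a positive log2 fold change in that probe set, 0.12 to 0.34, and 0 were called by limma. At an unadjusted p under 0.05 there were 2 higher and 0 lower, against 2219 and 1747 of all 12393 genes. Xpo1, the main exportin for proteins with leucine-rich signals, was at 9.25, 9.05 and 9.16 in control and 9.23, 9.23 and 9.54 in YY1bKO. Its groups overlapped, with a difference of 0.18 ± 0.11 (adjusted p = 0.347, interval -0.09 to 0.45). A dim Xpo1 probe set, at 3.62 in control, gave -0.25 without a call (adjusted p = 0.146). The mean over Xpo1 probe sets gave 0.0004. Xpo5, which exports microRNA precursors, gave 0.34 ± 0.12 (adjusted p = 0.105), and Xpo7 0.27 ± 0.09 (adjusted p = 0.0899). A dimmer Xpo7 probe set, at 7.63, 7.62 and 7.70 on the control arrays and 8.06, 8.09 and 7.93 on the YY1bKO arrays, was called higher (0.37, adjusted p = 0.0245). Xpo6, which exports actin, and Xpo4 gave 0.14 and 0.12.

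Probe sets of the same gene mostly went the same way. Of the 23 genes with more than 1 probe set, all probe sets shared a direction in 15, and 0 genes had calls in both directions. The other 19 genes rest on 1 probe set each. A probe set with a mean at or below 6.48, the median of all, is dim here. Of the 84 probe sets 22 were dim and 5 of those were called, where 848 of all 11313 dim probe sets were. Of the 42 genes 3 had a dim brightest probe set, with 0 called, where 424 of all 5467 dim genes were.

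**Figure D4:**
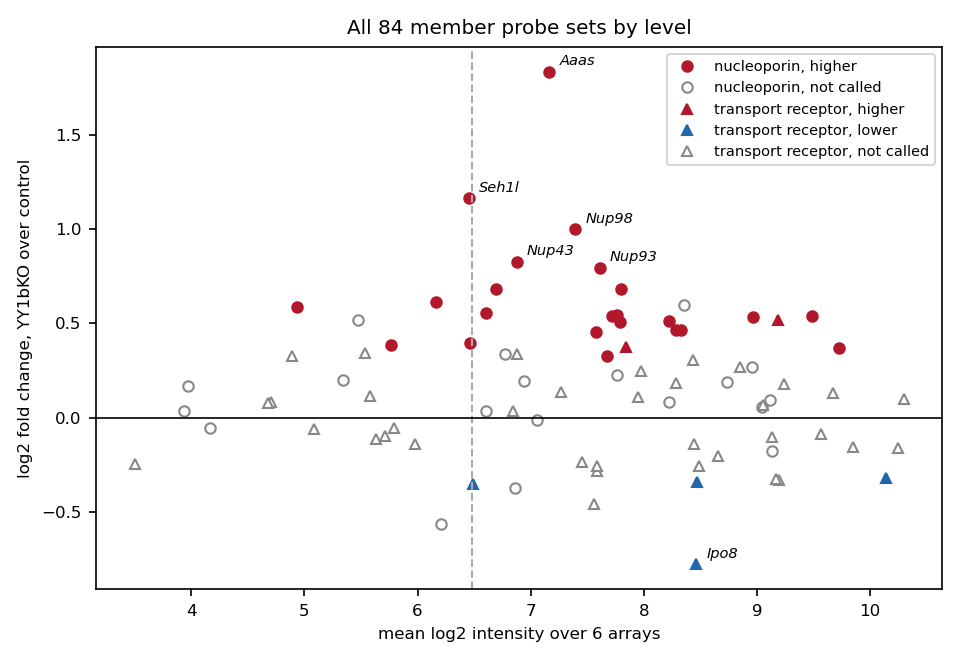
Log2 fold change (y axis) against the mean log2 intensity over 6 arrays (x axis) for all 84 probe sets, circles for nucleoporins and triangles for receptors. The dashed line is the median of all probe sets at 6.48; the 23 called nucleoporin probe sets are all higher, and of the 6 called receptor probe sets 2 are higher and 4 lower.

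Upstream sequences were set beside these values because Yy1 binds DNA at a known motif. A RefSeq table of promoters (GRCm38.p6, 250 bases before to 50 after each start) held a window for 34 of the 42 genes. The motif AANATGGC, with N for any base, was searched on both strands, and so was its core ATGGC, which every match of the longer form contains. The longer form occurred for 5 of the 34 genes, 14.7%, against 6.96% of all 27025 genes in the table, or 6.05% of all 32851 windows. They were Nup50, Nup88, Nup188, Ranbp2 and Xpo6, of which Nup50 was called higher and the others were not called. The core occurred for 16 of the 34 genes, 47.1%, against 44.2% of all genes: 5 of 12 called higher, 1 of 2 called lower and 10 of 20 not called. A match is a string of letters and not a measured binding site. Of the 5 matches Nup50 and Xpo6 are shown, a called gene and a gene not called, with Aaas and Ipo8 for the largest rise and fall, all selected after their values were known. Each run is the 250 bases before the start used in the table, 5′ to 3′ on the gene's strand. For Ipo8 that start lies 1464 bases from the annotated edge of the gene, for Xpo6 38 bases, and for Nup50 and Aaas it is the edge. Capitals mark the longer motif in Nup50 and Xpo6 and the core in Ipo8, and Aaas holds neither. They lie at chr15:84923178-84923427 (plus strand), chr7:126200502-126200751 (minus), chr15:102350760-102351009 (minus) and chr6:148831468-148831717 (minus).
Nup50: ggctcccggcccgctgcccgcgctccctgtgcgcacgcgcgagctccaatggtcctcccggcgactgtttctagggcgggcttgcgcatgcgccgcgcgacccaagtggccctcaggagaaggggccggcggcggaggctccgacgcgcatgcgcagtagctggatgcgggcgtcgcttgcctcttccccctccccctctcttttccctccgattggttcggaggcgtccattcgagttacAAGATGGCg
Xpo6: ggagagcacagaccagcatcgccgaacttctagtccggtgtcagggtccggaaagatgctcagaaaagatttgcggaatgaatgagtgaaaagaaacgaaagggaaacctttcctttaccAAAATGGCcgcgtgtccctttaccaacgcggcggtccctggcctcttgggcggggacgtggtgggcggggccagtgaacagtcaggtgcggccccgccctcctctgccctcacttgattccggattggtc
Aaas: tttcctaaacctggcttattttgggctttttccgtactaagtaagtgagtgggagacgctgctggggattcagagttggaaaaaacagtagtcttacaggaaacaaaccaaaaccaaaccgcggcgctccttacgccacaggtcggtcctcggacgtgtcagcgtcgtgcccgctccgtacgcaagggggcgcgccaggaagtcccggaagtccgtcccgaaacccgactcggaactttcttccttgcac
Ipo8: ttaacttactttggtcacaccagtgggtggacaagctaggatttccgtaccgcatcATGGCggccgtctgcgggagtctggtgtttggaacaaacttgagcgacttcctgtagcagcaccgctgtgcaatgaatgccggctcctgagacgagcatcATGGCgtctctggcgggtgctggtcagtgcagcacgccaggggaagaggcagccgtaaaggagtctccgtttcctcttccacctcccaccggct
The leftmost base of the motif lies at -9 from the start in Nup50 and at -130 in Xpo6, and the cores of Ipo8 at -194 and -94. Nup50 was higher on all YY1bKO arrays, as given above, and Xpo6 differed by 0.14 ± 0.09 (adjusted p = 0.337).

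Other genes of nuclear transport and of the nuclear envelope were read from lists. Over all genes 9.72% were higher and 7.78% lower, with a median log2 fold change of 0.04. Of 8 pore and receptor genes outside the naming rule 1 was higher and 0 lower, 12.5% and 0%, with a median of 0.25. The call was that of Xpot, the exportin of transfer RNA, at 8.79, 8.70 and 8.92 in control and 9.28, 9.35 and 9.33 in YY1bKO, a difference of 0.52 ± 0.09 (SE, adjusted p = 0.0104). Nupl2, Gle1, an activator of messenger RNA release, and Nupl1, a channel nucleoporin, gave 0.55, 0.21 and 0.36 without a call. Of 6 genes of the Ran cycle 1 was higher and 0 lower, 16.7% and 0%, with a median of 0.17. In lists this small, 1 call is little to set against the share of all genes. Ranbp1, which helps Ran to hydrolyse GTP in the cytoplasm, rose from 10.06 to 10.55 (0.49 ± 0.10, adjusted p = 0.0185), and Ran itself gave 0.18 ± 0.07 (adjusted p = 0.148).

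Of 15 messenger RNA export genes 3 were higher and 0 lower, 20% and 0%, against 9.72% and 7.78% of all genes, with a median of 0.19. Nxt1, the partner of the export receptor Nxf1, rose by 0.54 ± 0.09 (adjusted p = 0.0119), the helicase gene Ddx39b by 0.45 ± 0.10 (adjusted p = 0.0304) and Pcid2 by 0.31 ± 0.08 (adjusted p = 0.0496). Thoc2, of the THO complex, gave 0.34 (adjusted p = 0.053). Among 16 genes of the lamina and envelope 0 were called by limma, and the median was -0.01. At an unadjusted p under 0.05 there were 3 higher and 2 lower, against 2219 and 1747 of all 12393 genes. The smallest adjusted p were those of Tor1a (0.34, adjusted p = 0.0525), Tor1aip2 (0.34), Emd (0.35) and Syne1 (-0.48). Of 6 genes of the SUMO cycle, which modifies proteins at the pore, 3 were higher and 1 lower, 50% and 16.7%, with a median of 0.33. The SUMO proteases Senp2, which binds the nuclear basket, Senp3 and Senp1 rose by 0.57 ± 0.08, 0.51 ± 0.10 and 0.48 ± 0.09 (adjusted p = 0.00621, 0.0164 and 0.0181), and Senp6 fell by 0.50 on the log2 scale (adjusted p = 0.0108).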

How the data were processed

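The deposited intensities are linear values per probe set made by the authors with RMA, the tool named in the submitters' processing notes. RMA corrects background, equalises array distributions and summarises probes. The software, its version and its options were not given in the sources used here. Such processing can hide a change shared by most transcripts and understate differences of dim probe sets. Labelling used 6 ug of total RNA, per the labels' protocols. Intensities ran from 4.91 to 21219 and array medians from 6.46 to 6.48 on the log2 scale. There is no read depth on arrays, and the 3 arrays per group limit the precision.

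Values were transformed to log2. Of 22690 probe sets 64 Affymetrix controls were removed, and all other 22626 were fitted together with limma 3.58.1 under R 4.3.3 (lmFit, then eBayes with its default prior; group as the sole term, all 6 arrays). The fit had 2.93 prior and 4 residual degrees of freedom. Tests were two-sided with Benjamini-Hochberg adjustment over all 22626. SE is the moderated standard error and intervals are 95%. Names came from the platform annotation: 20380 probe sets had 1 symbol, 691 several and 1555 none here, and 20351 matched by Entrez identifier with 0 symbols changed. The labels do not say whether each replicate is another animal. The p-values therefore measure only the spread between these 6 samples, and that spread may be technical.

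Members, lists and tests were chosen with earlier results of these data known. Array values are given for called genes with a fold of at least 1.2 (up to 30) and for the brightest gene of each role that was not called, and up to 4 genes are named per list. Array values of Nup210 and Kpna3 and of the dimmer Kpna3 and Xpo7 probe sets were added after their values were seen. Alternatives were a filter on dim probe sets, 1 value per gene (brightest or mean), quantile normalization, median centring, trend and robust eBayes, array weights, a replicate block, each array left out, a fold of at least 1.5 and an adjusted p under 0.01.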

Additional observations from a re-analysis of the deposited data

How the results depend on the processing

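Against 15 genes higher and 2 lower, 25 probe sets higher and 4 lower, and 14 nucleoporin genes higher, counts changed by over 1.5 times as follows. Quantile normalization gave 1 gene and 2 probe sets lower. A fold of at least 1.5 left 5 genes and 9 probe sets higher, 1 and 1 lower, and 5 nucleoporin genes. It left 3.77% of all genes higher and 4.52% lower, against 9.72% and 7.78% in the main fit. An adjusted p under 0.01 left 5 genes and 6 probe sets higher, 1 and 1 lower, and 4 nucleoporin genes. Of all 12393 genes that threshold left 383 higher and 353 lower. With 1 array left out, higher genes ran from 5 to 15, lower genes from 1 to 3, higher probe sets from 8 to 27, lower probe sets from 1 to 4 and higher nucleoporin genes from 4 to 14. Over all genes the share higher then ran from 4.12% to 12.9% and the share lower from 3.5% to 11.3%. Each such fit has fewer arrays. Deviations of same-numbered arrays from their group means correlated at -0.23, 0.09 and 0.24, and control replicate 1 correlated best with YY1bKO replicate 3 (0.29). With 3 arrays per group, these values cannot decide whether replicate numbers pair the arrays. With the replicate number as a block, 7 genes and 11 probe sets were higher, 1 and 1 lower, and 6 nucleoporin genes higher. Over all genes 5.47% were then higher and 5.27% lower. Of the 17 called genes 9 lost their call in that fit: Nup133, Nup85, Nup37, Nup62, Sec13, Rae1, Nup107, Nup98 and Ipo7.

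Of the 17 called genes, Aaas, Nup43, Ipo8, Kpna2, Seh1l and Nup93 were called under all 14 alternatives that refit the model, with an adjusted p of at most 0.0429. The other 11 lost their call under 4 to 7 of these, and none changed direction. All 17 were called without control replicate 2, with array weights, with dim probe sets left out, with median centring and with trend and robust eBayes. Nup133 and Nup50 lost theirs in the mean over probe sets. Among genes not called, the log2 fold change of Kpna4 turned to 0.0934 in the mean over probe sets and that of Ndc1 to -0.0707 with array weights. With 1 array left out, Ndc1 ran from -0.111 to 0.121, Nup188 from -0.101 to 0.0516 and Nup153 from -0.0368 to 0.126, so these 3 changed sign. The cause of these changes was not tested.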
